A study of Mus musculus with 26 samples.

Results

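The 9 genes Hmox1, Mt1, Mt2, Mt4, Fth1, Ftl1, Slc40a1, Tfrc and Hp, which handle heme, iron and metals that bind metallothionein, were followed through muscle regeneration and in C2C12 myoblasts with Mettl3 knocked down. They were found by gene symbol in both deposited FPKM tables, where they made up 9 of 53465 listed genes for muscle and 9 of 55487 for C2C12 cells. FPKM is a fragment count scaled by the exon length of a gene and by library size. Levels of different genes are therefore comparable per length within a table, as far as that length fits the transcripts made. The tables were scaled separately, and no level is set across them.

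The muscle libraries came from whole tibialis anterior muscle of adult male C57BL/6J mice injected with cardiotoxin (CTX), a snake venom toxin that lyses myofibres, with 2 libraries each for days 0, 1, 3, 5 and 10. Saline was the stated control, and it was not stated whether day 0 muscle had received it or whether several animals were pooled. C2C12 is a mouse myoblast line that fuses into myotubes when serum is lowered. A stable puromycin-selected C2C12 line carried a lentiviral dCas9-KRAB repressor with guides to the promoter of Mettl3 (KD), which encodes the m6A RNA methyltransferase, and was set against a line with a control construct (Ctrl). The series text calls the KD cells a knockout. Both lines have 2 libraries from growth medium (GM) and 2 from day 3 of differentiation medium (DM3). The labels did not say whether replicates were separate animals or cultures, and the methods speak of independent biological samples in general without naming these libraries, so the p-values measure the spread between these samples. With 2 libraries against 2, an exact permutation test of a single gene cannot go below p = 0.333, so the tests below are limma fits across all genes of a table.

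Mettl3 was 4.70 and 5.65 FPKM in Ctrl GM, 4.68 and 5.15 in Ctrl DM3, 0.331 and 0.118 in KD GM and 0.148 and 0.0805 in KD DM3. The steps between low values implied 14173570 to 18822526 reads on genes per muscle library and 14230413 to 29567749 per C2C12 library. Xist, the RNA of the inactive X chromosome, was at 5.77 to 10.0 FPKM in both day 0 libraries, both day 10 libraries and day 3 replicate 2, and at no more than 0.152 FPKM in the other 5 muscle libraries, although the mice were stated to be male. Day 0 therefore cannot be told apart from this library difference when it is compared with day 1 or day 5. In C2C12 cells the replicates of the GM groups stood apart. They differed at least 4-fold for 10.1% of 13824 tested genes in Ctrl GM and 5.53% in KD GM, against 1.89% in Ctrl DM3 and 1.92% in KD DM3. The summed level of 6 myofibre genes was 120 and 13.0 FPKM in Ctrl GM and 77.3 and 4.19 FPKM in KD GM. It was 472 and 428 FPKM in Ctrl DM3 and 12.8 and 9.77 FPKM in KD DM3. In muscle these 6 genes summed to 50445 and 48903 FPKM on day 0.

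Heme released from myoglobin and hemoglobin is opened by heme oxygenase 1 (Hmox1), which yields iron, carbon monoxide and biliverdin, and haptoglobin (Hp) binds free hemoglobin in plasma. Iron enters cells through the transferrin receptor (Tfrc), is stored in ferritin built of heavy (Fth1) and light (Ftl1) chains, and leaves through ferroportin (Slc40a1). Metallothioneins (Mt1, Mt2 and Mt4) are small cysteine-rich proteins that bind zinc and copper, and their genes respond to metals, glucocorticoids and inflammatory signals. Much of the control of ferritin, ferroportin and Tfrc is known to act on the RNA, through iron-responsive elements that bind IRP1 and IRP2.

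The genes lie on 5 chromosomes of the GRCm38 build. Mt4 (chr8:94137197-94139031), Mt2 (chr8:94172664-94173568) and Mt1 (chr8:94179082-94180327) are neighbours on the plus strand, and Mt3, which is not among the 9, lies between Mt4 and Mt2. Hmox1 (chr8:75093621-75100589, plus strand) and Hp (chr8:109575128-109579172, minus strand) share this chromosome. Fth1 is at chr19:9980598-9985098 on the plus strand, Ftl1 at chr7:45457944-45459884 on the minus strand, Tfrc at chr16:32608920-32632794 on the plus strand and Slc40a1 at chr1:45908068-45926523 on the minus strand.

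The iron-responsive elements are shown because they mark the members whose RNA is also controlled after transcription. FPKM gives the level of an RNA and does not tell how that level was set. A hairpin was searched in GENCODE M21 transcripts on the sense strand as a bulged C, 5 stem bases, the loop letters CAGTGN and 5 bases that pair with the stem (G with T allowed). Matches stood in the 5′ UTR of Fth1 (chr19:9982732-9982760, exon 1), Ftl1 (chr7:45459779-45459807, exon 1) and Slc40a1 (chr1:45925465-45925493, exon 1). Another 4 stood in the 3′ UTR of Tfrc, all in exon 19, at chr16:32631219-32631247, chr16:32631598-32631626, chr16:32631663-32631691 and chr16:32631710-32631738. Capitals mark the bulged C and the 6 loop letters.
Fth1: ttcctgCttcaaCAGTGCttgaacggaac
Ftl1: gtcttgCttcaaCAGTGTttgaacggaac
Slc40a1: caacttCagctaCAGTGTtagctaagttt
Tfrc a: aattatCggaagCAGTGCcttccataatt
Tfrc b: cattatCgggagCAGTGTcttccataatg
Tfrc c: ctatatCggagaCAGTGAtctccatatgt
Tfrc d: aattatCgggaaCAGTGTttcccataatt
Among genes with the region, 0.133% of 21087 held such a match in a 5′ UTR and 0.606% of 21112 in a 3′ UTR. No match was found in the UTRs of Hmox1, Hp, Mt1, Mt2 or Mt4.

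Mt1 and Mt2 had the largest day 1 changes in muscle among members read on day 0, so the letters of the metal response element, TGCACNC or TGCGCNC on either strand, were searched in the RefSeq promoters (GRCm38.p6, 250 bases before to 50 after the start). The table held 6 of the 9 members (Mt1, Mt2, Mt4, Fth1, Ftl1 and Tfrc). Mt2 had 4 matches, Mt1 had 3, Mt4 had 1 and the promoters of Fth1 and Ftl1 had 0. Tfrc had 2 on opposite strands that overlap each other in 1 of its 2 listed promoters, and 0 in the other. Of 32851 promoters, 25.7% held at least 1 match, 1.97% at least 3 and 0.517% at least 4. The 3 in Mt1 and the 2 nearest the start in Mt2 are given with 8 bases on each side, at chr8:94179058-94179080, chr8:94179083-94179105, chr8:94179101-94179123, chr8:94172560-94172582 and chr8:94172614-94172636. Capitals mark the match.
Mt1 a: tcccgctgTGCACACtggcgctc
Mt1 b: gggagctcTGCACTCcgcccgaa
Mt1 c: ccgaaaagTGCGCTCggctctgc
Mt2, minus strand: gggagggcGTGTGCAggctctgt
Mt2, minus strand, past the start: ttcgggtcGTGCGCAggcccagg
Starts here are those of the RefSeq promoters. The Mt2 promoter spans chr8:94172368-94172667, so its start lies before the gene start at chr8:94172664 given above. A match is a stretch of letters and not a measured binding site.

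In regenerating muscle, the metallothioneins, Hmox1 and Ftl1 were higher on day 1 than on day 0, and Tfrc was lower. These days also differed in Xist state, which cannot be told apart from the injury. Of the 9 members, 6 passed an adjusted p of 0.05 on day 1 against day 0, where 6% of all 16753 tested genes did. Of these members 5 were higher, against 3.53% of tested genes, and 1 was lower, against 2.47%. Mt4 is among the 6 but passed the filter on low values only through its 2 day 1 libraries, so its call was fixed by the filter and is no support. The other 8 members gave 5 calls.

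**Figure D1:**
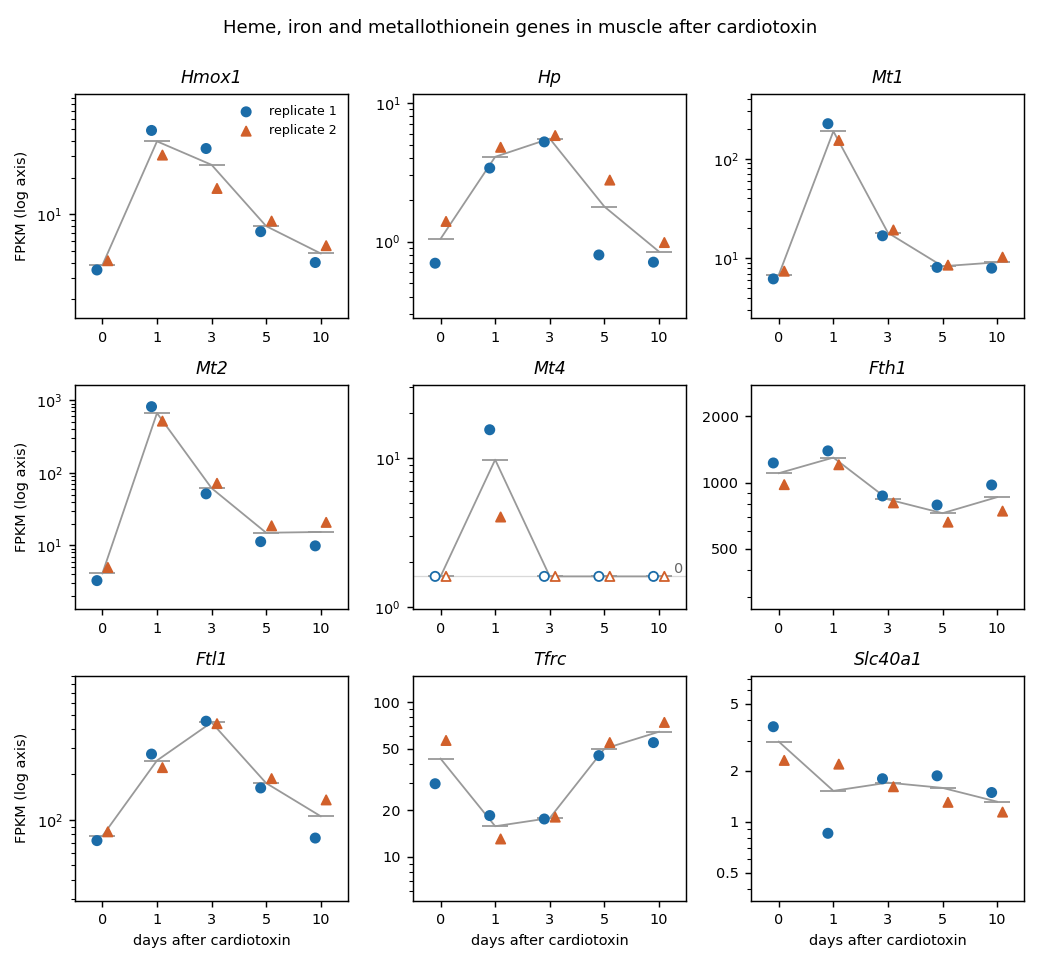
FPKM (log axis, a separate scale per gene) of the 9 genes in each muscle library by days after cardiotoxin, with replicate 1 as circles, replicate 2 as triangles and the group mean as a bar joined by a line. Open symbols on the grey line are libraries listed at 0. Mt1, Mt2, Mt4 and Hmox1 have their highest mean on day 1, Ftl1 and Hp on day 3, and Tfrc is lowest on days 1 and 3.

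The metallothioneins changed most. Mt2 was 3.28 and 4.97 FPKM on day 0, 816 and 515 on day 1, 51.4 and 71.7 on day 3, 11.3 and 18.6 on day 5, then 9.86 and 20.8 on day 10. Its 2 day 1 libraries were above all others, and both day 10 libraries were still above both day 0 libraries. The log2 fold change on day 1 was 7.29 ± 0.43 (SE, n = 2 per day, limma adjusted p = 0.00153).

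Mt1 was 6.18 and 7.39 FPKM on day 0, 225 and 153 on day 1, 16.8 and 19.2 on day 3, 8.08 and 8.51 on day 5, then 7.93 and 10.2 on day 10. The day 1 rise was 4.76 ± 0.21 (SE, log2, n = 2 per day, limma adjusted p = 0.000544). In FPKM, Mt1 stood above Mt2 in both day 0 libraries and below it in all 8 libraries after injury. This order, but not the change of the ratio between days, rests on exon lengths of 1246 bases for Mt1 and 588 for Mt2. By implied reads Mt1 was above Mt2 in day 5 replicate 1 (164 against 108) and on day 10 (121 against 71 and 169 against 162). The ratio of Mt2 to Mt1 was 0.53 and 0.672 on day 0, 3.62 and 3.37 on day 1, 3.06 and 3.73 on day 3, 1.40 and 2.19 on day 5, then 1.24 and 2.03 on day 10. The day 0 ratios did not overlap those of any later day.

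Mt4, a metallothionein best known from stratified epithelium, was listed at 0 in 8 of 10 muscle libraries and read only on day 1, at 15.4 and 4.02 FPKM, which correspond to 88 and 21 reads. No fold is printed for it in the text, and its calls count as no support, since it entered the fit only through the libraries where it was high. The summed level of 7 keratinocyte markers was 1.47 and 0.966 FPKM on day 1, within or below its range of 1.24 to 1.85 FPKM on the other days, of which Krt10 and Sbsn made up most. Krt1 and Krtdap were at 0 in both day 1 libraries, while Krt5, Krt14 and Lor, at 0 on day 0, were at 0.128, 0.0397 and 0.118 FPKM in day 1 replicate 1 and at 0 in replicate 2. The part of skin cells in the Mt4 values was not tested. Mt3, the neighbour between Mt4 and Mt2, was 0.527 and 1.41 FPKM on day 0, 74.6 and 21.9 on day 1, 8.93 and 7.14 on day 3, 6.45 and 1.86 on day 5, then 2.22 and 2.62 on day 10. It too rose on day 1 (log2 fold change 5.38, limma adjusted p = 0.0200). All 4 genes of this stretch of chromosome 8 therefore had their highest mean on day 1.

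**Figure D2:**
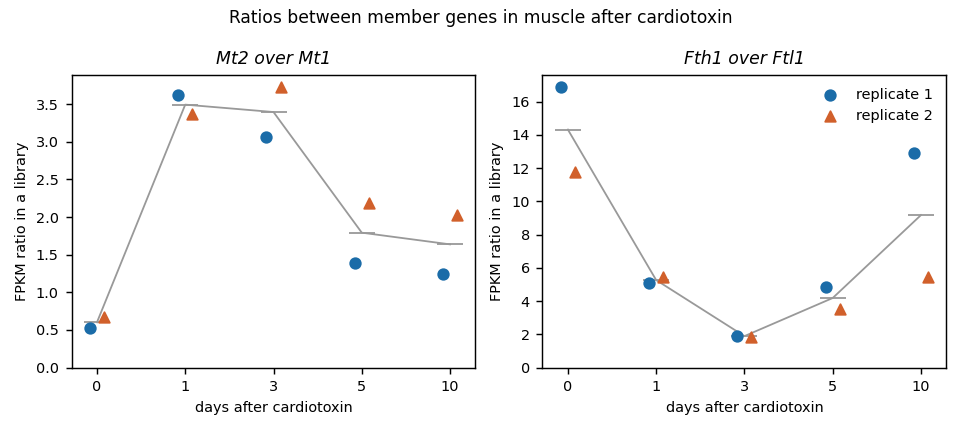
Ratio of FPKM values within each muscle library (linear axes from 0), Mt2 over Mt1 on the left and Fth1 over Ftl1 on the right, with circles for replicate 1, triangles for replicate 2 and bars for means. The Mt2 ratio goes from 0.53 and 0.672 on day 0 to 3.62 and 3.37 on day 1, and the Fth1 ratio reaches 1.92 and 1.86 on day 3.

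The values of Mt2 hold a limit of counting. The antisense gene Gm45774 overlaps its exons on the other strand, and in the muscle table it held 88.4% to 105% as many implied reads as Mt2 in the 10 libraries. The antisense gene Gm10252 overlaps Ftl1, and held 68.7% to 72.7% of the Ftl1 reads. In the C2C12 table the shares were 0.0741% to 0.872% and 0.339% to 0.846%. Whether strand was used in counting was not given in the sources used here, so reads of these members and their antisense partners cannot be told apart in muscle.

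Hmox1, the inducible heme oxygenase, was 3.48 and 4.15 FPKM on day 0, 48.7 and 30.6 on day 1, 34.6 and 16.3 on day 3, 7.18 and 8.77 on day 5, then 4.01 and 5.51 on day 10. Days 1 and 3 overlapped each other and lay above all other days. The log2 fold change against day 0 was 3.31 ± 0.37 on day 1 (SE, n = 2 per day, limma adjusted p = 0.0135) and 2.61 ± 0.37 on day 3 (limma adjusted p = 0.00129). It then fell by 1.57 from day 3 to day 5 (limma adjusted p = 0.0353) and by 2.31 from day 3 to day 10 (limma adjusted p = 0.00319).

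Hp was low throughout, at 0.700 and 1.40 FPKM on day 0, 3.39 and 4.79 on day 1, 5.24 and 5.82 on day 3, 0.802 and 2.78 on day 5, then 0.712 and 0.986 on day 10. Both day 3 libraries were above the rest, and day 5 spread over the range of day 0 and beyond. The day 1 difference of 1.92 (log2) did not pass (limma adjusted p = 0.0738), while the day 3 rise of 2.36 ± 0.53 did (limma adjusted p = 0.00845). Alb, Apoa1, Serpina1a and Ttr, markers of the hepatocytes that make plasma haptoglobin, were at 0 in all libraries of days 0, 1 and 3.

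Of the ferritin chains, Ftl1 rose and Fth1 was not called. Ftl1 was 72.7 and 83.2 FPKM on day 0, 273 and 222 on day 1, 452 and 435 on day 3, 163 and 188 on day 5, then 75.6 and 135 on day 10. Its log2 fold change against day 0 was 1.66 ± 0.26 on day 1 (SE, n = 2 per day, limma adjusted p = 0.0246), 2.51 ± 0.26 on day 3 (limma adjusted p = 0.00046) and 1.17 ± 0.26 on day 5 (limma adjusted p = 0.0215). The day 1 call was kept in 10 of 19 alternative fits, the day 3 call in 19 and the day 5 call in 15. Day 3 was above all other days, and day 10 overlapped day 0.

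Fth1 was the most abundant member per length in every muscle library. It was 1228 and 978 FPKM on day 0, 1394 and 1205 on day 1, 868 and 808 on day 3, 789.7 and 659.7 on day 5, then 975 and 741 on day 10. None of the 7 comparisons of days called it, with a log2 difference of 0.24 on day 1 (95% interval -0.26 to 0.74, limma adjusted p = 0.507) and -0.39 on day 3 (95% interval -0.89 to 0.11, limma adjusted p = 0.173). Quantile normalization turned the day 3 difference to 1.11 (limma adjusted p = 0.00171), so its direction on day 3 depends on the scaling. The ratio of Fth1 to Ftl1 went from 16.9 and 11.8 on day 0 to 5.10 and 5.43 on day 1, 1.92 and 1.86 on day 3, 4.85 and 3.52 on day 5, then 12.9 and 5.47 on day 10. The near copy Ftl1-ps1 was read at 1.64 to 9.66 FPKM, and how reads were split between copies was not stated.

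Tfrc, which brings transferrin iron into cells, fell early and rose later. It was 29.7 and 56.5 FPKM on day 0, 18.5 and 13.0 on day 1, 17.5 and 18.0 on day 3, 45.1 and 54.7 on day 5, then 54.7 and 73.9 on day 10. Days 1 and 3 overlapped and lay below all libraries of the other days. It fell by 1.39 on day 1 (log2, SE 0.32, n = 2 per day, limma adjusted p = 0.0469) and by 1.20 on day 3 (limma adjusted p = 0.0161). The day 1 call was kept in only 4 of 19 alternative fits and the day 3 call in 14 of 19. From day 3 it rose by 1.48 to day 5 (limma adjusted p = 0.0255) and by 1.83 to day 10 (limma adjusted p = 0.00409).

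Slc40a1, the iron exporter, was 3.65 and 2.30 FPKM on day 0, 0.853 and 2.19 on day 1, 1.80 and 1.61 on day 3, 1.87 and 1.30 on day 5, then 1.49 and 1.14 on day 10. Both day 0 libraries were above the 8 later ones. No comparison of days called it, and the largest differences against day 0 were -1.02 on day 1 (limma adjusted p = 0.169) and -1.10 on day 10 (limma adjusted p = 0.458). Without day 1 replicate 2 the day 1 difference was -1.65 (limma adjusted p = 0.0352).

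**Figure D3:**
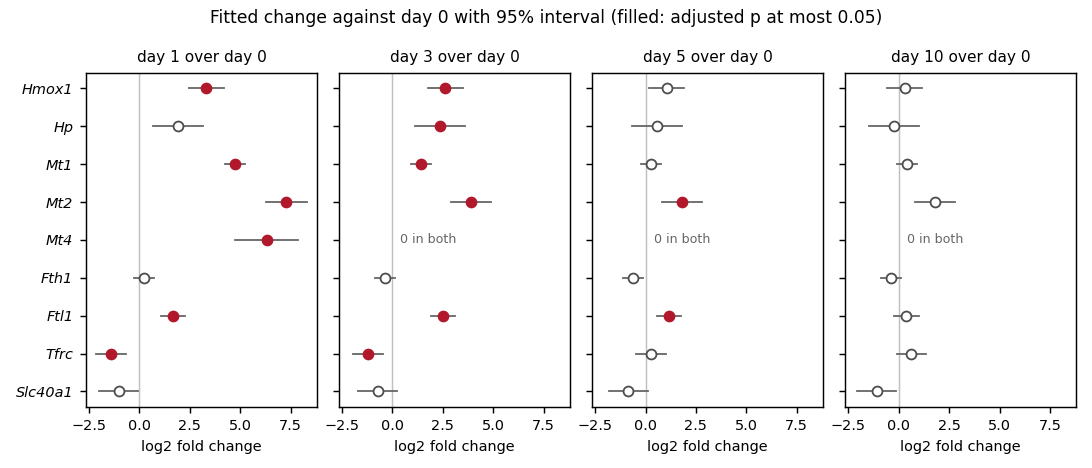
Fitted log2 fold change (points) and 95% interval (lines) of the 9 genes on days 1, 3, 5 and 10 against day 0, with filled points at a limma adjusted p of at most 0.05. Day 1 and day 3 have 6 filled points each, day 5 has 2 and day 10 has 0. The day 1 position of Mt4 depends on the pseudocount, since day 0 was listed at 0. Its filled point on day 1 was fixed by the filter on low values and is no support.

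The day 3 calls were Mt2 (3.88), Hmox1, Ftl1, Hp, Mt1 (1.40) and Tfrc, again 6 of 9 members, where 48.8% of tested genes passed. Higher were 5 members (24.5% of tested genes) and lower was 1 (24.3%). On day 5 the calls were Mt2 (1.82, limma adjusted p = 0.0239) and Ftl1, 2 of 9, where 25.5% of tested genes passed. Both were higher, where 12.9% of tested genes passed higher and 12.5% lower. On day 10 limma called 0 members and 0.00597% of tested genes. At an unadjusted p under 0.05 there were 2 members, Mt2 (log2 difference 1.80, limma adjusted p = 0.339) and Slc40a1, and 1697 of 16753 genes.

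The comparisons with day 0 share its 2 libraries. Between days after injury, 4 members passed from day 1 to day 3, where 31.1% of tested genes did. Mt4 was listed at 0 again (its call fixed by the filter, as on day 1), Mt2 fell by 3.42, Mt1 fell by 3.36 and Ftl1 rose by 0.85 (limma adjusted p = 0.0448). Tested genes passed higher at 14.5% and lower at 16.6%. From day 3 to day 5, 5 members passed, where 12.7% of tested genes did: Mt2 (-2.06), Hmox1, Ftl1 (-1.34) and Mt1 (-1.11) fell and Tfrc rose, against 5.46% of tested genes lower and 7.23% higher. From day 3 to day 10, 6 members passed, where 37.9% did: Hp (-2.58), Hmox1, Ftl1 (-2.13), Mt2 (-2.08) and Mt1 (-0.99) fell and Tfrc rose, against 18.8% lower and 19.1% higher.

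The calls differed in how far they rested on single libraries. In each fit below where the member count fell, the share of all tested genes called fell too. These counts therefore do not single out the members. The day 1 count of 6 became 2, Mt1 and Mt2, without day 0 replicate 1 or without day 1 replicate 1, and also when only days 0 and 1 were fitted (0.0759% of tested genes passed that fit). With a term for the Xist libraries it became 0 for members and 0 of 16753 genes, with Mt2 still at 7.77 and Mt1 at 4.95 (log2, limma adjusted p = 0.235 and 0.162). The count for day 5 against day 0 became 0 without day 0 replicate 1 or either day 5 library, and with the Xist term. That for day 5 against day 3 became 0 without any of the 4 libraries compared, and with the Xist term.

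Within libraries of like Xist state the values were as follows. Each of these fits assumes that the lone day 3 library varies like the other groups, so only effect sizes and directions are given. Against day 0, day 3 replicate 2 alone gave Mt2 at 4.12, Ftl1 at 2.48, Hp at 2.43, Hmox1 at 2.07 and Mt1 at 1.49 (log2). Tfrc was at -1.18. Day 10 against day 3 replicate 2 kept the direction of the 6 members called with both day 3 libraries. Day 3 replicate 1 against day 1 gave Mt2 at -3.66 and Mt1 at -3.46. Mt4 was listed at 0 in that day 3 library, and its difference is no support, as above. Day 5 against day 3 replicate 1 kept the direction of the 5 members called with both day 3 libraries. Those calls were lost in that fit, as given above.

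Whole muscle holds many cell types, and fewer cells of a type cannot be told apart from less RNA per cell. The sum of 8 macrophage markers was 48.7 and 99.6 FPKM on day 0, 325 and 395 on day 1, 1618 and 1580 on day 3, 465 and 530.1 on day 5, then 74.5 and 278 on day 10. It was highest on day 3, as were Ftl1 and Hp, whereas Mt1, Mt2, Mt4 and Hmox1 had their highest mean on day 1. The sum of 9 neutrophil markers was 19.5 and 10.2 FPKM on day 1 and 1.02 to 8.48 FPKM on other days, and of its 3 tested genes all were higher on day 1 than on day 0, with Csf3r called. Elane, Ly6g and Retnlg were at 0 on day 1. The 6 myofibre genes summed to 50445 and 48903 FPKM on day 0, 35993 and 39062 on day 1, 13343 and 11362 on day 3, 35279 and 34709 on day 5, then 54817 and 44378 on day 10. Tfrc was low on both day 1 and day 3, and on day 5 it was back in the range of day 0 while this sum was near its day 1 level. The sum of 7 erythroid genes was 237 and 357 FPKM on day 0, 90.0 and 132 on day 1, 149 and 43.7 on day 3, 199 and 688 on day 5, then 131 and 180.2 on day 10. Its 5 tested genes were all higher on day 5 than on day 3, with 0 called by limma. All 5 had an unadjusted limma p under 0.05, as did 4920 of all 16753 tested genes. The part of these cells in the changes was not tested.

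The other genes of the pathways were counted from lists, and the counts stand against the shares of all tested genes that passed, 6% on day 1, 48.8% on day 3, 31.1% from day 1 to day 3 and 37.9% from day 3 to day 10. Of 9 tested heme synthesis genes, 2 passed lower on day 1 (Alas1, the first enzyme of the pathway in most tissues, and Urod) and 0 higher. On day 3, 6 passed lower and 0 higher (median log2 difference -1.02, against 0.01 for all tested genes), and 6 rose from day 3 to day 10. Alas1 was 24.3 and 31.4 FPKM on day 0, 8.65 and 10.0 on day 3, then 30.3 and 30.2 on day 10. Cpox fell by 2.17 from day 1 to day 3 (limma adjusted p = 0.00228).

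Of 8 heme binding, transport and breakdown genes, 1 passed on day 1 (Blvrb, higher), and 3 passed higher and 2 lower on day 3. Blvrb, a biliverdin reductase, rose from 1.10 and 1.27 FPKM on day 0 to 5.95 and 5.70 on day 3 (log2 2.21, limma adjusted p = 0.000385). Lrp1, the receptor for heme bound to hemopexin, rose by 2.40 on day 3 (limma adjusted p = 0.00215). Both had highest values on day 3, as Ftl1 did.

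Of 12 iron uptake, transport and export genes, 4 rose on day 1 and 0 fell. They were Slc11a1, an iron and manganese transporter of phagosomes (2.33), Lcn2, which binds bacterial siderophores (3.57), Slc39a14 (0.80) and Slc11a2 (0.80). On day 3, 4 of the 12 passed higher and 1 lower, which is no larger a share than that of all tested genes, and Slc11a1 reached 4.13 (limma adjusted p = 0.000482) while Lcn2 fell by 4.57 from day 1. Of 9 iron sensing, storage and mitochondrial genes, limma called 0 on day 1 (1 at an unadjusted p under 0.05). On day 3, 3 of the 9 passed lower and 0 higher, where 48.8% of tested genes passed and 24.3% passed lower. Slc25a28 (-1.09), a mitochondrial iron importer, and Fbxl5 (-0.56), which marks IRP2 for degradation, fell on day 3.

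Of 10 zinc and copper genes, Mt3 and Slc30a1, the zinc exporter, rose on day 1 and Ccs, the copper chaperone of superoxide dismutase, fell. Slc30a1 was 2.11 and 2.37 FPKM on day 0, then 4.11 and 3.99 on day 1 (log2 0.83, limma adjusted p = 0.0269), and 2.12 to 2.77 FPKM in the other 6 libraries. Slc39a10 rose by 0.86 on day 5 (limma adjusted p = 0.0362). Of 11 NRF2 target genes, 4 rose on day 1 and 0 fell (Srxn1, Gclm, G6pdx and Gsr, median of the 11 0.84), and 6 fell from day 1 to day 3 while 1 rose. Srxn1, which repairs peroxiredoxins, was 10.5 and 9.67 FPKM on day 0, 81.8 and 34.1 on day 1, then 8.37 and 5.45 on day 3 (log2 -2.95 from day 1, limma adjusted p = 0.00338). G6pdx instead rose further, by 2.52 on day 3 against day 0 (limma adjusted p = 0.000491).

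Among the 3 genes whose log2 levels ran most like each member over the 10 muscle libraries were Slc30a1 for Mt1 (Pearson r = 0.985), Sdf2l1 and Ccl7 for Mt2 (0.975 and 0.970, after its antisense partner), Zfp36 for Hmox1 (0.971), Nqo1 for Fth1 (0.991), Sart3 for Ftl1 (0.994, after its antisense partner), Gm14257 for Tfrc (0.971), Zcchc11 for Slc40a1 (0.957), Fip1l1 for Mt4 (0.972) and Gm38158 for Hp (0.961). The libraries share days and replicates, and the values are a description. Mt4 was read only on day 1, so its r rests on those libraries alone. Nqo1, an NRF2 target, was 9.51 and 5.40 FPKM on day 0, 16.9 and 9.85 on day 1, then 1.70 and 1.01 on day 5.

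In C2C12 cells no member was called in the fit of all libraries without a replicate block. With replicate numbers as a block Tfrc was called for KD against Ctrl in DM3 (limma adjusted p = 0.0249), where 3.65% of tested genes passed, and for DM3 against GM in Ctrl (limma adjusted p = 0.0409), where 2.97% passed. The following counts are without the block. KD against Ctrl called 0 members in GM, where 0% of 13824 tested genes passed, and 0 in DM3, where 1.98% passed. DM3 against GM called 0 members in Ctrl, where 1.14% of tested genes passed, and 0 in KD, where 0.0289% passed. The test of whether the knockdown effect differed between GM and DM3 called 0 members and 0% of genes. At an unadjusted p under 0.05 these fits held 0, 2, 7, 0 and 2 members and 1244, 2429, 2520, 1748 and 1198 genes.

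**Figure D4:**
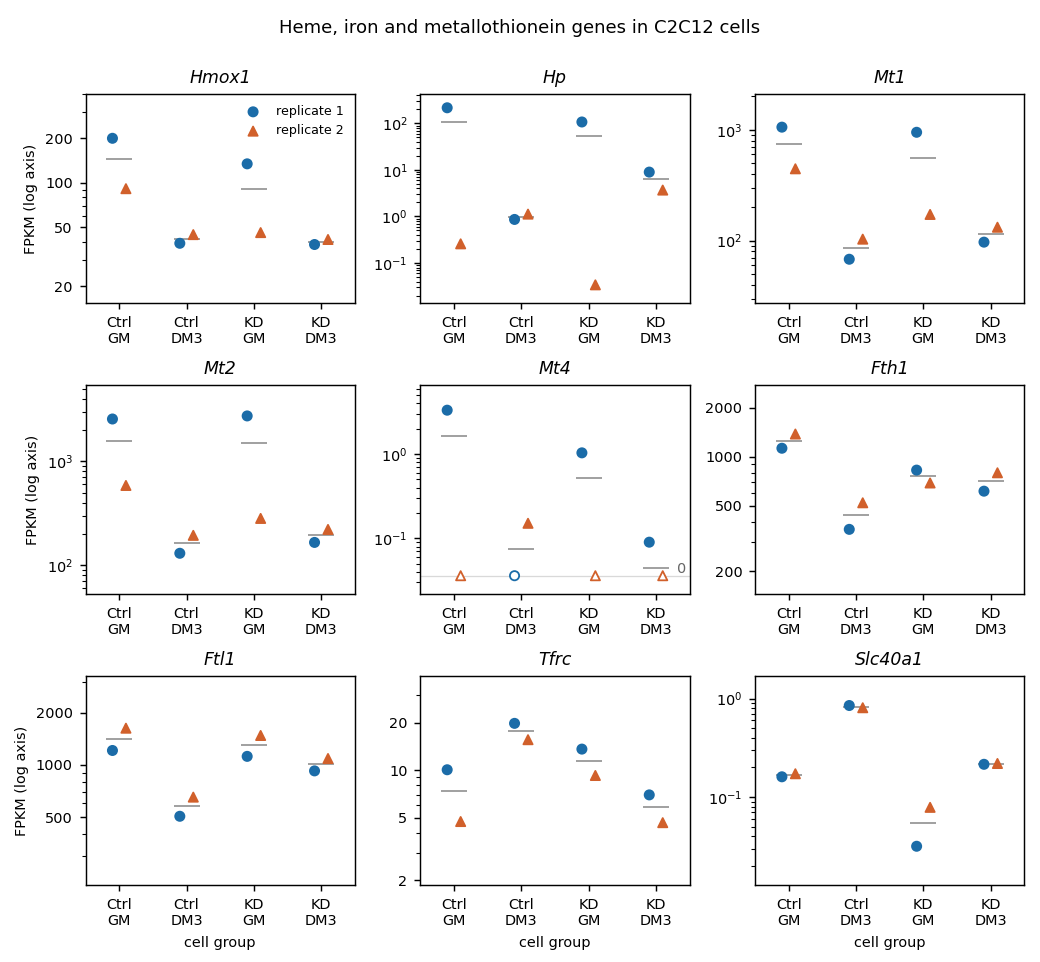
FPKM (log axis, a separate scale per gene) of the 9 genes in each C2C12 library, with replicate 1 as circles, replicate 2 as triangles and the group mean as a bar. Open symbols on the grey line are libraries listed at 0. Hp, Mt2 and Mt4 lie far apart between the replicates of both GM groups, and Tfrc is above GM in Ctrl DM3 and below GM in KD DM3.

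Tfrc had the smallest p of the 9 for the knockdown in DM3. It was 10.1 and 4.72 FPKM in Ctrl GM, 19.8 and 15.6 in Ctrl DM3, 13.6 and 9.25 in KD GM and 6.97 and 4.64 in KD DM3. Both Ctrl libraries were higher in DM3 than in GM, both KD libraries were lower, and KD lay below Ctrl in DM3 without overlap. The difference of KD from Ctrl in DM3 was -1.61 ± 0.41 (SE, log2, n = 2 per group, limma adjusted p = 0.114). It passed with replicate numbers as a block (limma adjusted p = 0.0249), in a fit of the DM3 groups alone (limma adjusted p = 0.0124, where 21.6% of genes passed) and without Ctrl GM replicate 1 (limma adjusted p = 0.0374) or replicate 2 (limma adjusted p = 0.0373). The rise from GM to DM3 in Ctrl was 1.34 (limma adjusted p = 0.188, and 0.0409 with the block). The difference in KD was -0.97 (limma adjusted p = 0.412), and the 2 differed by -2.30 (95% interval -3.72 to -0.88, limma adjusted p = 0.371). The sum of 6 myofibre genes was also far lower in KD DM3 than in Ctrl DM3 (given above), and its part in the Tfrc values was not tested.

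Slc40a1 was near its detection limit, at 0.161 and 0.173 FPKM in Ctrl GM, 0.851 and 0.808 in Ctrl DM3, 0.0317 and 0.0787 in KD GM and 0.215 and 0.219 in KD DM3. These levels rest on 9 to 210 implied reads per library. In each medium both KD libraries were below both Ctrl libraries, and in each line DM3 was above GM. The log2 difference of KD from Ctrl was -0.80 in GM (limma adjusted p = 0.673) and -1.55 in DM3 (95% interval -2.68 to -0.42, limma adjusted p = 0.156). In a fit of the DM3 groups alone it passed (limma adjusted p = 0.0228), where 21.6% of genes did. Slc40a1 passed the filter on low values only through the Ctrl DM3 libraries, where it was high. Its differences from that group are therefore no support. From GM to DM3 it was 1.80 in Ctrl (limma adjusted p = 0.138) and 1.05 in KD (limma adjusted p = 0.433).

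The ferritin genes were both abundant, and in GM Fth1 was 1128 and 1378 FPKM in Ctrl and 829 and 691 in KD. In DM3 it was 359.8 and 523 in Ctrl and 616 and 798 in KD. KD was thus below Ctrl in GM and above it in DM3, without overlap in either medium. Neither difference passed (log2 -0.72, limma adjusted p = 0.592, and 0.69, limma adjusted p = 0.365), and the difference between them was 1.41 (95% interval 0.27 to 2.55, limma adjusted p = 0.483). Ftl1 was 1210.0 and 1625 FPKM in Ctrl GM, 506 and 652 in Ctrl DM3, 1119 and 1476 in KD GM and 923 and 1088 in KD DM3. In DM3 it was higher in KD without overlap (log2 0.80, limma adjusted p = 0.310). From GM to DM3 in Ctrl, Fth1 differed by -1.52 (limma adjusted p = 0.101) and Ftl1 by -1.29 (limma adjusted p = 0.150). The near copy Ftl1-ps1 was read at 11.1 to 52.4 FPKM.

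Mt1 and Mt2 had higher levels in GM than in DM3, with no call. Mt1 was 1056 and 445 FPKM in Ctrl GM, 68.0 and 103 in Ctrl DM3, 949.6 and 172 in KD GM and 97.0 and 132 in KD DM3. Mt2 was 2575 and 586 FPKM in Ctrl GM, 129 and 193 in Ctrl DM3, 2757 and 281 in KD GM and 165 and 219.8 in KD DM3. Replicate 1 was above replicate 2 in both GM groups for both genes, and every GM library was above every DM3 library of its line. The log2 difference from GM to DM3 in Ctrl was -3.03 ± 0.83 for Mt1 (SE, n = 2 per group, limma adjusted p = 0.151) and -2.96 ± 1.14 for Mt2 (limma adjusted p = 0.251). Mt4 was 3.32 FPKM in Ctrl GM replicate 1 and 1.03 in KD GM replicate 1, 42 and 13 reads, and no more than 0.151 FPKM in the other 6 libraries.

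Hmox1 was 200.1 and 91.3 FPKM in Ctrl GM, 39.0 and 44.7 in Ctrl DM3, 134 and 46.1 in KD GM and 38.3 and 41.4 in KD DM3. The 4 DM3 libraries lay within a narrow range, below every GM library. The difference from GM to DM3 in Ctrl was -1.69 (log2, 95% interval -3.05 to -0.33, limma adjusted p = 0.205). Hp had the widest gap between replicates, at 216 and 0.258 FPKM in Ctrl GM and 107 and 0.0339 in KD GM, which are 11054 against 4 and 5435 against 1 reads. In DM3 it was 0.863 and 1.12 FPKM in Ctrl and 8.98 and 3.69 in KD. KD exceeded Ctrl in DM3 by 2.43 (log2, limma adjusted p = 0.834), and by a limma adjusted p of 0.0205 where only the DM3 groups were fitted. Replicate 1 exceeded replicate 2 at least 4-fold in both GM groups for 273 of 13824 genes, Hp among them, and replicate 2 exceeded replicate 1 likewise for 181 genes. Among the former, Lcn2 was 99.5 against 0.0395 FPKM in Ctrl GM and 40.8 against 0.104 in KD GM.

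**Figure D5:**
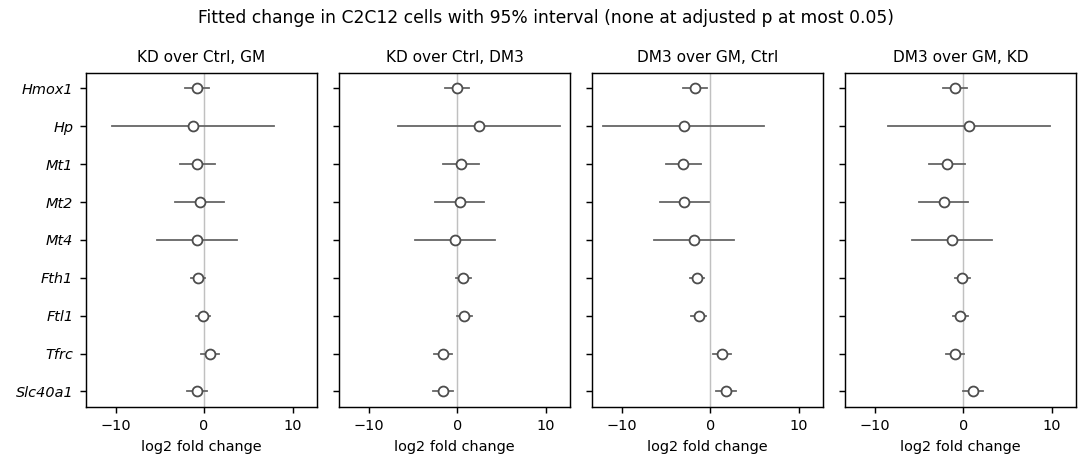
Fitted log2 fold change (points) and 95% interval (lines) of the 9 genes for KD over Ctrl in GM and in DM3 and for DM3 over GM in Ctrl and in KD, with all libraries fitted. No gene is at a limma adjusted p of at most 0.05, and the intervals of Hp are the widest.

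The count for DM3 against GM in Ctrl was repeated without either replicate 1 GM library or without either replicate 2 GM library, a choice made after the data were seen, with the lone GM libraries assumed to vary like the DM3 groups. Slc40a1 passed the filter only through the Ctrl DM3 libraries, so its call in these fits is no support. Without replicate 1, 7 members passed, where 46.1% of 13552 genes did: Mt1 (-2.41), Mt2 (-1.89), Fth1 (-1.67), Ftl1 (-1.50) and Hmox1 (-1.13) were lower in DM3, and Tfrc (1.87) and Slc40a1 (1.77) were higher. Without replicate 2, 5 passed, where 11.2% of 13438 genes did, all lower: Mt1 (-3.66), Mt2 (-4.03), Hmox1 (-2.26), Hp (-7.64) and Mt4, which passed the filter only through the replicate 1 GM libraries, so its call is no result. Hp thus had opposite signs, at 1.60 (limma adjusted p = 0.0743) without replicate 1. KD against Ctrl in GM called 0 members either way.

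Among the pathway lists in C2C12 cells, limma called 1 gene over all 5 comparisons. Steap1, a metalloreductase, was 37.0 and 55.5 FPKM in Ctrl GM and 12.7 and 15.8 in Ctrl DM3 (log2 -1.67, limma adjusted p = 0.0404). It was 38.0 and 34.5 FPKM in KD GM and 13.5 and 14.7 in KD DM3, and these did not overlap either. The 4 hepatocyte markers summed to no more than 0.0135 FPKM in any C2C12 library. The 8 macrophage markers summed to 1.95 to 10.1 FPKM, with 2.36 and 2.30 in Ctrl DM3 against 7.19 and 8.44 in KD DM3, mostly Lyz2 and Cd68, and 4 of them, C1qa, C1qb, Itgam and Adgre1, were at 0 in all 8 libraries. The part of such cells in the C2C12 values was not tested.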

How the data were processed

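RNA-seq libraries were made with a SMARTER mRNA-Seq kit per the labels. Alignment was to GRCm38 by HISAT2 and counting by featureCounts. From these counts the authors computed FPKM in DESeq2, each table scaled on its own, and deposited only FPKM. Whether strand was used in counting is not given in the sources used here. Of 26 samples, 10 muscle and 8 knockdown libraries were used, grouped by label, and 8 overexpression and GFP samples were not analysed here. Implied reads rest on steps of 1 read in the low FPKM values, using GENCODE M21 exon lengths (tolerance 0.05 reads, up to 10 reads), of which at least 97.2% (muscle) and 98.8% (C2C12) were whole. They entered no test. A single read on 1 kb was 0.0494 to 0.0817 FPKM in muscle and 0.0315 to 0.104 FPKM in C2C12 cells, which limits the precision of low values.

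Genes with at least 0.5 FPKM in 2 libraries, 16753 in muscle and 13824 in C2C12 cells, were tested as log2(FPKM + 0.1) with limma 3.58.1 in R 4.3.3 (mean-variance trend, all groups of a table in 1 fit, Benjamini-Hochberg adjustment). All 9 members passed this filter in both tables, Slc40a1 in C2C12 cells only through the Ctrl DM3 libraries. The threshold was an adjusted p of 0.05, and fold changes of low genes are understated by the pseudocount. The fit was tested on simulated data. Members and lists were chosen with earlier results of these data known. Named beside the members were, per list and table, the 2 called genes with the largest change, a mean of at least 1 FPKM and no overlap, every called gene of a list with 5 or fewer calls, and the genes most like each member. Replicate differences of the C2C12 groups correlated at 0.278 to 0.680 (6 pairs of groups), and those in muscle at -0.0187 to 0.211. By this measure replicate numbers paired the C2C12 libraries, with no stated reason. The main fit did not model this pairing, and the replicate block was run only as an alternative. Alternatives were pseudocounts of 1 and 0.01, no filter, a filter of 1 FPKM, quantile and median-ratio scaling, only the groups compared, a replicate block, an Xist term (muscle), each library left out and, added later, either GM replicate left out. Median-ratio scaling left the library scales as deposited, so it could alter no call. Tables used Python 3.11.15 with pandas 2.3.3, and plots matplotlib 3.10.9. Results for some genes that the naming rule picks are not reported here.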

Additional observations from a re-analysis of the deposited data

Results flagged for a closer look

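The knockdown and control cells moved in opposite directions between media for Tfrc. Both Ctrl DM3 libraries were above both Ctrl GM libraries, and both KD DM3 libraries were below both KD GM libraries. The test of this difference gave -2.30 on the log2 scale (limma adjusted p = 0.371), so it did not pass after adjustment. For Fth1 the KD libraries were below Ctrl in GM and above Ctrl in DM3 without overlap, and the difference between these effects was 1.41 (limma adjusted p = 0.483), which did not pass either. Groups of 2 libraries were not tested for outlying samples.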

How the results depend on the processing

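Of 29 called fold changes, 10 kept their call and direction in every alternative that gave a value: Mt2, Hmox1, Ftl1 and Mt1 on day 3 against day 0, Mt4, Mt2 and Mt1 on day 3 against day 1, and Hmox1, Ftl1 and Tfrc on day 10 against day 3. Mt4 had no value without either day 1 library, where it failed the filter, so its count here is no support. With only the groups compared, the members called were 2 on day 1 against day 0 and 3 for KD against Ctrl in DM3 (with Slc40a1, whose call there is no support). With the Xist term days 1 and 5 against day 0 and day 5 against day 3 gave 0 members and 0 of 16753 genes. No call of these 3 comparisons could therefore be among the 10 kept. With the replicate block the members called were 1 (Tfrc) for KD against Ctrl in DM3 and 1 (Tfrc) for DM3 against GM in Ctrl. Calls over all genes there went from 1.98% to 3.65% and from 1.14% to 2.97%. In muscle, where the numbers do not pair the libraries, the block called Hp on day 1 (adjusted p = 0.0396) and lost Tfrc (adjusted p = 0.0505). Quantile normalization turned Fth1 on day 3 against day 0 to 1.11 and shifted the median of all genes in that comparison from 0.01 to -0.12. Without Ctrl GM replicate 1, or without either replicate 1 GM library, Hp from GM to DM3 in Ctrl was 1.60 in place of -3.02, and without replicate 2 it was -7.64. Without either replicate 1 GM library the counts were 3 for KD against Ctrl in DM3, 7 for DM3 against GM in Ctrl and 1 in KD (20.1%, 46.1% and 11.6% of all genes), and without either replicate 2 GM library 3, 5 and 4 (20.8%, 11.2% and 10.5%). Leaving out each library in turn gave 2 to 5 members on day 1, 5 to 6 on day 3, 0 to 3 on day 5 and 0 on day 10 against day 0, 2 to 4 from day 1 to day 3, 0 to 5 from day 3 to day 5 and 3 to 6 from day 3 to day 10 (3 without day 10 replicate 1). In C2C12 cells it gave 0 to 1 for KD against Ctrl in DM3, 0 to 3 for DM3 against GM in Ctrl (3 without Ctrl GM replicate 1, where 27% of all genes passed) and 0 in the other 3 comparisons. The share of all tested genes called also moved with a library left out, in several comparisons to far below that with all libraries. The counts of members therefore do not single them out. The cause of these changes was not tested. Depth limits Mt4, Hp and Slc40a1, and on day 0 also Mt2 (24 and 39 reads), Hmox1 (76 and 97) and Mt1 (96 in replicate 1).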
